A study of Mus musculus with 13 samples.

Results

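Transcripts of glycolysis and of the response to low oxygen were examined in T cells sorted from mouse melanomas. The 41 gene symbols were a list by function: the enzymes of the glycolytic pathway, the kinases that set its flux, the hypoxia-inducible factor HIF-1α with its regulators, known targets of that factor, and glycogen enzymes. Of these, 40 were among the 12963 genes of the expression table. Pkm2, the remaining symbol, is an older name of Pkm, which was present. All 40 were among the 12667 genes tested, which required a level of 10 normalized reads or more in 2 or more of the 13 libraries.

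All mice carried the genotype Foxp3-EGFP-DTR, in which the Foxp3 promoter drives EGFP together with a human receptor for diphtheria toxin, and all bore subcutaneous tumors of the melanoma line B16-F10. Diphtheria toxin (DTx) kills the Foxp3-expressing regulatory T (Treg) cells of these mice and PBS leaves them in place. Conventional T (Tconv) cells of the CD4+ (CD4 PBS, n = 2) and CD8+ kind (CD8 PBS, n = 2) and Treg cells (Treg PBS, n = 3) were sorted from PBS-treated mice, and CD4+ Tconv (CD4 DTx, n = 3) and CD8+ Tconv cells (CD8 DTx, n = 3) from DTx-treated mice. The toxin acts on the mouse, so the DTx groups differ from the PBS groups in the absence of Treg cells and in everything that follows from it, and toxin-treated mice without the receptor are not among the 13 libraries. The labels of the PBS Tconv libraries carried the numbers 2 and 3.

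Glycolysis splits glucose into pyruvate in the cytosol. Lactate dehydrogenase can then turn pyruvate into lactate. Pyruvate taken up by mitochondria is instead oxidized there by the pyruvate dehydrogenase complex, which pyruvate dehydrogenase kinases inhibit. HIF-1α accumulates when prolyl hydroxylases (Egln1, Egln3) and the ubiquitin ligase subunit Vhl fail to degrade it, under low oxygen or downstream of T cell receptor and mTOR signals, and it raises transcription of many glycolytic genes. T cells are known to raise glycolysis when activated.

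HIF binds a short core motif, ACGTG or GCGTG, and upstream sequences are shown for 4 genes on which the results turn: 3 that were higher and 1 that was lower in every main comparison. Each is the stretch of 250 bases before the RefSeq transcription start, read 5′ to 3′ on the gene's own strand in GRCm38.p6, a later build than the NCBIM37 (mm9) build the authors aligned to. Capitals mark ACGTG or GCGTG on either strand, and the palindrome CACGTG counts as a pair of overlapping matches.
Ldha, chr7:46845554-46845803, plus strand: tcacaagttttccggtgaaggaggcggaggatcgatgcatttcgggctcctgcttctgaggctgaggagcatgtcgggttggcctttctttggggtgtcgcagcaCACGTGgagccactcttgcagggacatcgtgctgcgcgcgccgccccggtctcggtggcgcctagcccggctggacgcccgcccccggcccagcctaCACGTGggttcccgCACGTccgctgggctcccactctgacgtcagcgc
Pgk1, chrX:106186850-106187099, plus strand: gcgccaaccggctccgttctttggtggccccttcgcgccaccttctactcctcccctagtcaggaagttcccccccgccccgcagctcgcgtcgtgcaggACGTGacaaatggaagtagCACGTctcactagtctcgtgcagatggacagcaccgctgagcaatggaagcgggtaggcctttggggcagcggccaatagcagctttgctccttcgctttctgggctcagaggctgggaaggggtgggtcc
Bnip3, chr7:138909507-138909756, minus strand: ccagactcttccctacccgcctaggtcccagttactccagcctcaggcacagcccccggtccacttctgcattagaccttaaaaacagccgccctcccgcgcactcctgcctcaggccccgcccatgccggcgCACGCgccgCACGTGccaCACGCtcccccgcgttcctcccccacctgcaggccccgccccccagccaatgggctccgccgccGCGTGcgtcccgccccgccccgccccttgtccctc
Pdk1, chr2:71872974-71873223, plus strand: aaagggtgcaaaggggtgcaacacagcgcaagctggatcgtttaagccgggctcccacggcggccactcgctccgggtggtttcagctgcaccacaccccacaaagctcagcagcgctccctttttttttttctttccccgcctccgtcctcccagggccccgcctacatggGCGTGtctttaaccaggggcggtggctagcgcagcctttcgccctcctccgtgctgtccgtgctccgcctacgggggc
The Ldha sequence held 5 matches, of which 2 pairs overlapped in CACGTG, the Bnip3 sequence 5, the Pgk1 sequence 2 and the Pdk1 sequence 1. RefSeq start sites were found for 38 of the 40 genes (Ero1l under the name Ero1a), Bnip3l and Ndrg1 being the others, and 28 of the 38 (73.7%) held a match. Of 32851 RefSeq promoters of the same length 38.6% held one, and of 9578 genes of the expression table matched by symbol 56.0% did. Known targets of HIF were chosen into the list, so its share is not that of genes picked without regard to HIF. Among the 15 genes that were higher in all 3 main comparisons 11 held a match, and Gpi1, Aldoa, Tpi1 and Pkm held none. Among the 11 genes with a start site that were called in none of the comparisons 8 held a match. A match is a string of letters and not a known binding site.

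The files gave between 15947556 and 34140486 recovered reads per library, and the values below are normalized reads, in which a single read was worth between 0.661 and 1.37. The sorted cells matched their labels by marker. The sum of 3 Treg genes (Foxp3, Ikzf2, Lrrc32) lay between 10511 and 16128 in Treg PBS and at or below 1337 in every other library. The Cd4 level was at most 413 in CD8 libraries against 10595 or more in the Treg and CD4 libraries, and the summed Cd8a and Cd8b1 level, 63851 or more in CD8 libraries, reached 3662 in 1 CD4 DTx library. The summed level of 9 immediate early genes ran from 22786 to 154389 in Treg PBS, 49188 to 212567 in CD4 PBS and 29706 to 191330 in CD8 PBS, with the library numbered 3 high for Fos in each, against 15916 to 32421 in CD4 DTx and 10627 to 16322 in CD8 DTx. Because each library pools many cells, fewer cells of a type and less RNA per cell cannot be told apart.

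Most glycolytic enzymes were higher in tumor Treg cells than in CD4 Tconv cells of the same treatment (14 of 17 called). Most were also higher after DTx in CD4 (13 of 17) and CD8 Tconv cells (12 of 17). Over all genes tested 13.5%, 8.64% and 7.4% were called higher in these comparisons, the shares to set beside each part of the list below. Together the 17, from hexokinase to lactate dehydrogenase, took 0.698% ± 0.021 (SD, n = 2) of recovered reads in CD4 PBS and 0.680% ± 0.072 (SD, n = 2) in CD8 PBS. The share was 1.87% ± 0.14 (SD, n = 3) in Treg PBS, 1.63% ± 0.26 (SD, n = 3) in CD4 DTx and 1.62% ± 0.26 (SD, n = 3) in CD8 DTx. The 4 PBS Tconv libraries lay between 0.630% and 0.731%, and the other 9 between 1.33% and 2.03%, so the ranges did not overlap.

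**Figure D1:**
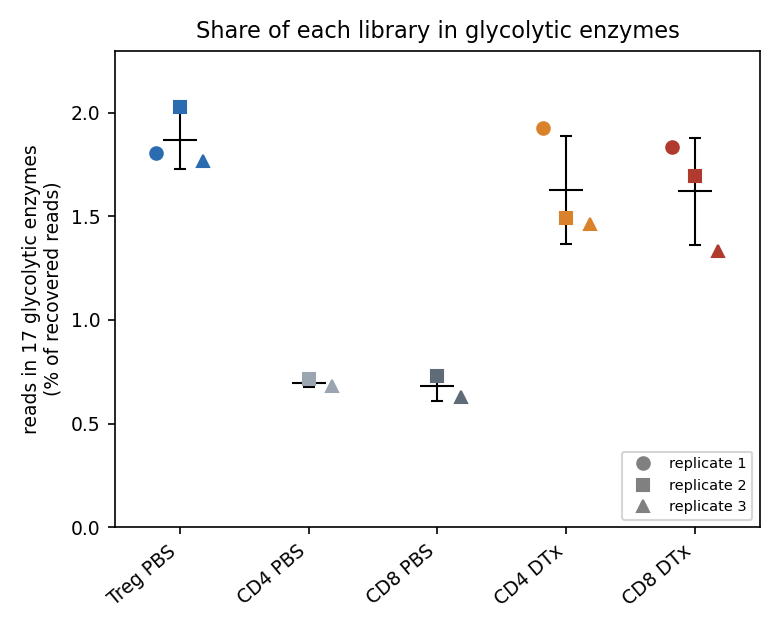
Percent of each library's recovered reads that fell in the 17 glycolytic enzymes, by group, with one symbol per library (shape gives the replicate number) and the group mean ± SD in black. The 4 PBS Tconv libraries sit at or below 0.731%, and all Treg PBS and DTx libraries sit at or above 1.33%.

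The DTx libraries differed among themselves. The CD4 DTx library 1 was the highest of its group for 12 of the 17 enzymes and held 1.93% of its reads in them, against 1.49% and 1.46% in the other two. The CD8 DTx library 3 was the lowest of its group for 13 of the 17 and held 1.33%, against 1.84% and 1.69%.

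By gene, limma on log2(normalized reads + 1) called 24 of the 40 genes between Treg PBS and CD4 PBS at a Benjamini-Hochberg adjusted p under 0.05, with 23 higher and 1 lower in Treg cells, where 20.4% of all genes tested were called (13.5% higher and 6.91% lower). Between CD4 DTx and CD4 PBS 21 were called, 19 higher and 2 lower, where 12.7% of all genes were called (8.64% higher and 4.08% lower). Between CD8 DTx and CD8 PBS 20 were called, 18 higher and 2 lower, where 10.9% of all genes were called (7.4% higher and 3.47% lower). The median log2 fold change of the 40 genes was 1.43, 1.05 and 1.04 in this order, beside 0.01, -0.04 and -0.03 over all genes tested. The first and second comparisons share the CD4 PBS libraries, so their values are not independent of each other. In all 3 comparisons 15 genes were higher: Gpi1, Pfkl, Pfkp, Aldoa, Aldoc, Tpi1, Gapdh, Pgk1, Pgam1, Pkm, Ldha, Hif1a, Bnip3, Ero1l and Higd1a. Pdk1 was lower in all 3, 11 genes were called in 1 or 2 of them, and 13 in none.

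Leaving out CD8 PBS replicate 3, so that its group was a single library assumed to vary like the others, reduced the CD8 count from 20 to 8, with 7 higher and 1 lower. Pfkl, Gapdh, Pgam1, Pkm, Eno1, Ldha, Ldhb, Bnip3, Ero1l, Higd1a, Mxi1 and Pgm2 were the calls lost. Calls over all genes tested fell as well, both in this fit and in the one without the libraries numbered 3 given below. With a rule of more than 4-fold beside the adjusted p the counts in the 3 comparisons were 11, 7 and 4, where 10.2%, 6.85% and 5.46% of all genes were called. Without the libraries numbered 3 in any group, a choice made after the high Fos values were seen that left 8 libraries and 1 in each PBS Tconv group, 15, 7 and 0 genes were called by limma, and 27, 24 and 23 genes had an unadjusted p under 0.05.

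**Figure D2:**
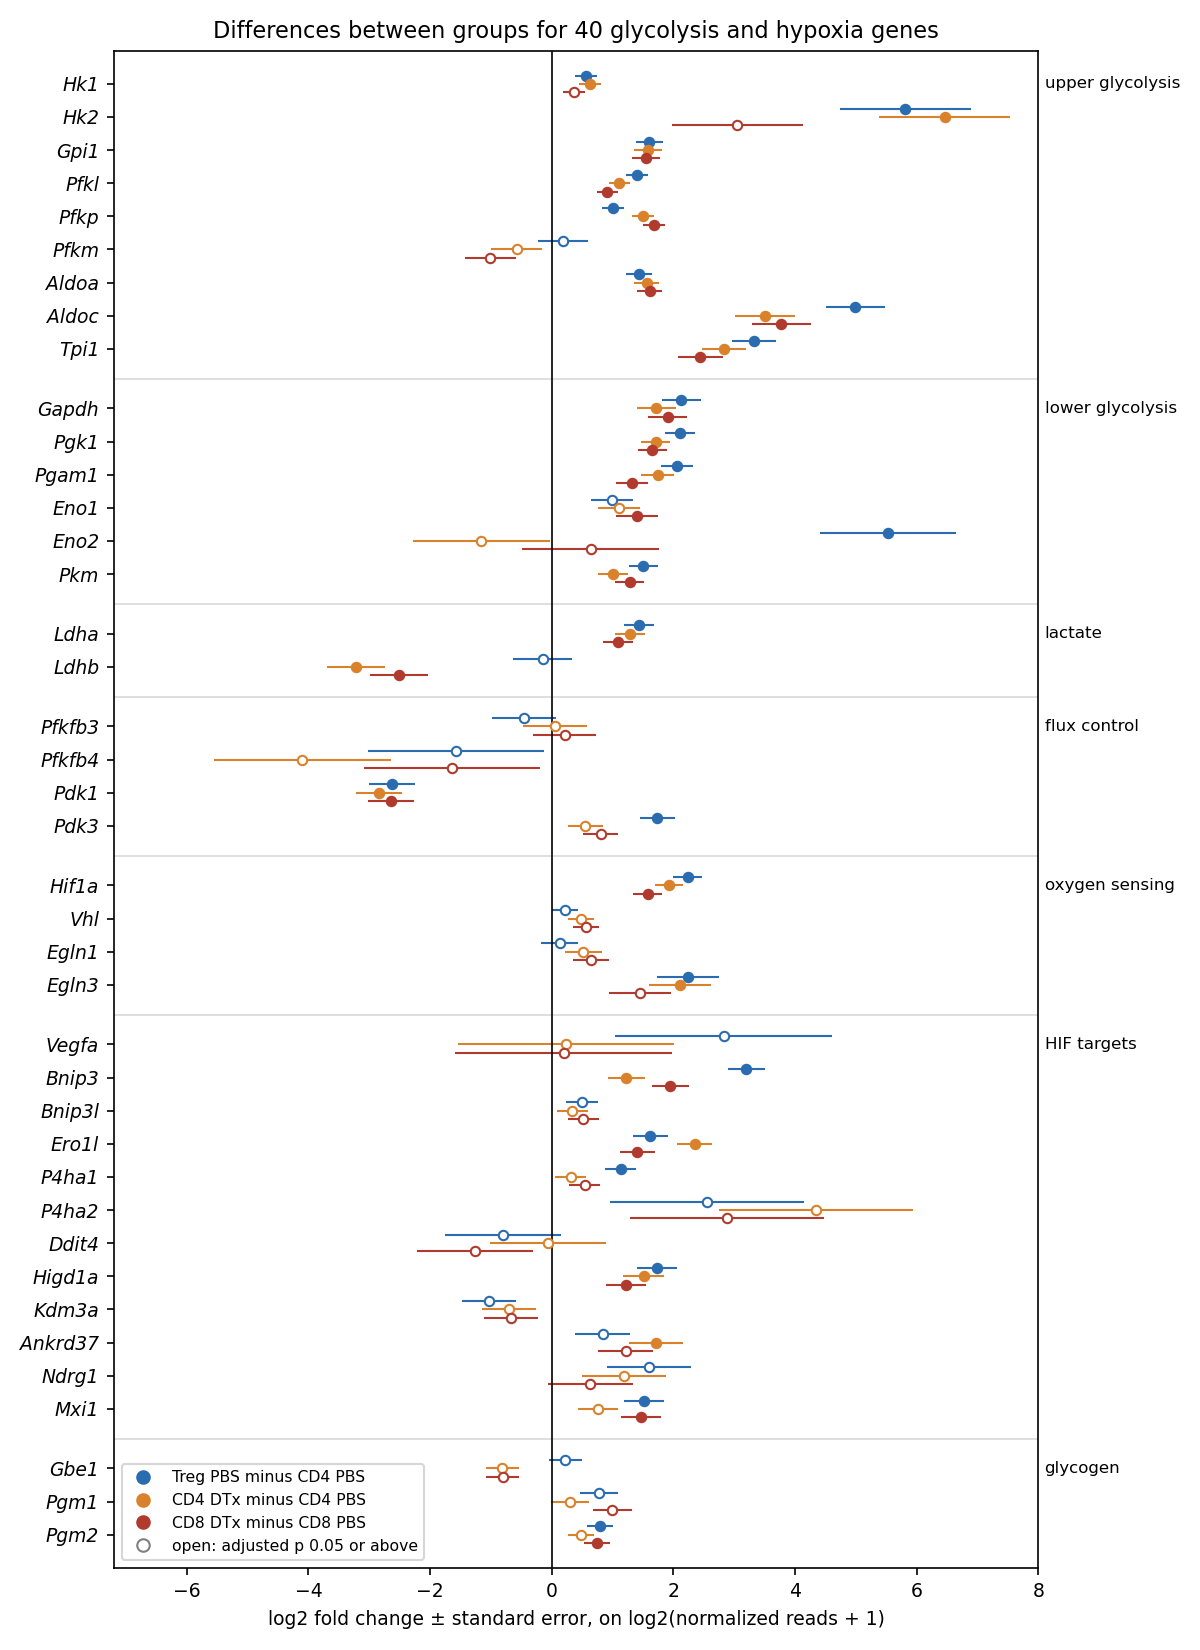
Log2 fold changes on log2(normalized reads + 1) with standard errors for the 40 genes, grouped by role, in Treg PBS minus CD4 PBS (blue), CD4 DTx minus CD4 PBS (orange) and CD8 DTx minus CD8 PBS (red), with filled points where the limma adjusted p was under 0.05. Most enzyme points lie between 1 and 4, Pdk1 lies between -2.84 and -2.63 in all 3, and Ldhb is near 0 in Treg PBS and at -3.22 and -2.51 after DTx.

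The upper part of the pathway, 9 genes here, takes glucose to triose phosphates. Of the 9, 8 were higher in Treg PBS and 8 in CD4 DTx, each against CD4 PBS, and 6 were higher in CD8 DTx against CD8 PBS, with none lower. Tpi1, triosephosphate isomerase, had 2916 and 2381 normalized reads in the CD4 PBS libraries, and 4670 and 2575 in the CD8 PBS libraries. The Treg PBS libraries had 25681, 29948 and 24156, those of CD4 DTx 30083, 14779 and 14866, and those of CD8 DTx 24995, 20558 and 13107. Every Treg and DTx library was above every PBS Tconv library. The log2 fold change was 3.33 ± 0.36 (SE; limma adjusted p 9.06e-05) in Treg PBS, 2.83 ± 0.36 (adjusted p 0.00041) in CD4 DTx and 2.44 ± 0.36 (adjusted p 0.00181) in CD8 DTx.

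Aldolase cleaves fructose bisphosphate, and its brain-type isoform Aldoc showed the largest fold change of the 17 enzymes in all 3 comparisons, the sparse Hk2 and Eno2 aside. Aldoc was at 137 and 69.4 in CD4 PBS, with 173 and 46.7 in CD8 PBS. In Treg PBS it was at 4168, 2386 and 3062, in CD4 DTx at 1132, 1015 and 1213 and in CD8 DTx at 1706, 1074 and 1043. The 3 levels were separate without overlap: PBS Tconv cells lowest, DTx cells in between, Treg cells highest. Against the PBS Tconv cells of the same type the log2 fold changes were 3.51 ± 0.49 (adjusted p 0.000658) in CD4 DTx and 3.77 ± 0.49 (adjusted p 0.000986) in CD8 DTx, and in Treg PBS against CD4 PBS 4.99 ± 0.49 (adjusted p 4.58e-05). Against Treg PBS Aldoc missed the threshold in limma in both DTx groups (log2 difference -1.48, 95% interval -2.43 to -0.54, adjusted p 0.0578 in CD4, and -1.33, interval -2.28 to -0.38, adjusted p 0.0908 in CD8). DESeq2 called it lower in both (adjusted p 0.00604 and 0.0213), as did limma once libraries were blocked by replicate number (adjusted p 0.0299 and 0.0483). Same-numbered libraries did not all deviate together in the comparisons with Treg PBS or with PBS Tconv cells (r of -0.31 to 0.30). In those comparisons, here and below, the block is an alternative setting and not a known pairing.

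Aldoa, the common aldolase, lay between 13047 and 14390 in the 4 PBS Tconv libraries, against 33289 or more in each of the other 9 libraries. Its log2 fold changes were 1.43, 1.56 and 1.61 in Treg PBS, CD4 DTx and CD8 DTx, each ± 0.21 (adjusted p 0.00053, 0.00051 and 0.00099). Gpi1, which makes fructose 6-phosphate, had 5954 and 6254 normalized reads in CD4 PBS, 6547 and 6021 in CD8 PBS, 19293, 18285 and 18121 in Treg PBS, 23240, 16716 and 15795 in CD4 DTx, and 21455, 20645 and 14005 in CD8 DTx. The PBS Tconv libraries were again below all others, and the log2 fold changes were 1.60, 1.58 and 1.55, each ± 0.23 (adjusted p 0.000466, 0.00073 and 0.00171).

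Phosphofructokinase is the committed step, and its isoforms differed. Pfkl, the liver type, was at 3287 and 2649 in CD4 PBS, 2877 and 2667 in CD8 PBS, 7603, 6866 and 9072 in Treg PBS, 6738, 6291 and 6089 in CD4 DTx, and 5431, 5297 and 4948 in CD8 DTx. Treg PBS was highest, followed by CD4 DTx and then CD8 DTx, without overlap. Its log2 fold changes were 1.40, 1.11 and 0.91 (each ± 0.17, adjusted p 0.000194, 0.00132 and 0.00612). Pfkp, the platelet type, was at 5453 and 6279 in CD4 PBS and 7601 and 6448 in CD8 PBS. It was at 12411, 11646 and 11332 in Treg PBS, at 17077, 17091 and 15330 in CD4 DTx and at 20530, 26124 and 20926 in CD8 DTx. For Pfkp the order of these groups was reversed, with CD8 DTx highest, again without overlap, and the log2 fold changes were 1.01, 1.49 and 1.68 (each ± 0.18; adjusted p 0.00192, 0.000267 and 0.000432). Pfkm, the muscle type, passed the test in none of the 3 comparisons, with levels of 117 to 591 across all libraries.

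Hexokinase starts the pathway. Hk1 was at 4946 and 4991 in CD4 PBS, 6959 to 7587 in Treg PBS and 7588 to 7847 in CD4 DTx. The log2 fold changes were 0.56 ± 0.18 (adjusted p 0.0459) in Treg PBS and 0.63 ± 0.18 (adjusted p 0.0377) in CD4 DTx. Each of these calls was lost in 9 of 18 alternative settings, among them every removal of a single library of the groups compared. In CD8 DTx Hk1 was at 5291, 7640 and 7431 against 5330 and 5103, so the groups overlapped (log2 0.36, adjusted p 0.225). Hk2, the inducible hexokinase, was scarce. It had 5 and 0 recovered reads in CD4 PBS and 49 and 7 in CD8 PBS, and 87 to 246 in Treg PBS, 126 to 399 in CD4 DTx and 129 to 421 in CD8 DTx. It was called in Treg PBS (adjusted p 0.00258) and CD4 DTx (adjusted p 0.00189) and not in CD8 DTx (adjusted p 0.0919), and the size of its fold change rests on the pseudocount.

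The lower part of the pathway, 6 genes, takes triose phosphates to pyruvate. Of the 6, 5 were higher in Treg PBS, 4 in CD4 DTx and 5 in CD8 DTx than in their PBS Tconv group, with none lower. Gapdh, the dehydrogenase often used as a reference transcript, was at 16510 and 17120 in CD4 PBS and 19952 and 17150 in CD8 PBS. It was at 74829, 77547 and 68921 in Treg PBS, 80069, 45544 and 46273 in CD4 DTx and 88605, 82128 and 45818 in CD8 DTx. No PBS Tconv library reached the lowest of these. Its log2 fold changes were 2.13, 1.72 and 1.91 (each ± 0.32; adjusted p 0.000688, 0.00407 and 0.00359).

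Pgk1, phosphoglycerate kinase, whose upstream sequence is given above, was at 3837 and 3744 in CD4 PBS and 4831 and 4099 in CD8 PBS, against 16170, 17554 and 15312 in Treg PBS, 16555, 10391 and 11021 in CD4 DTx, and 17647, 14272 and 10888 in CD8 DTx. The PBS Tconv libraries lay below all others, and the ranges of the other groups overlapped. Its log2 fold changes were 2.11, 1.71 and 1.65 (each ± 0.24; adjusted p 0.000121, 0.000713 and 0.00171). Pgam1, phosphoglycerate mutase, had 2155 and 2191 normalized reads in CD4 PBS, 3618 and 3410 in CD8 PBS, 9668, 8891 and 8751 in Treg PBS, 10718, 6062 and 5867 in CD4 DTx, and 10837, 9241 and 6730 in CD8 DTx. The PBS Tconv libraries were lowest, with log2 fold changes of 2.06, 1.74 and 1.32 (each ± 0.26; adjusted p 0.000239, 0.00109 and 0.00817).

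Pkm encodes the pyruvate kinase of most tissues, whose PKM1 and PKM2 forms a value per gene cannot separate. It was at 28414 and 31997 in CD4 PBS, 23531 and 21694 in CD8 PBS, 81372, 93502 and 82674 in Treg PBS, 73273, 56787 and 53435 in CD4 DTx, and 59971, 61577 and 44576 in CD8 DTx. Treg PBS was highest and PBS Tconv cells lowest, without overlap. The log2 fold changes were 1.51, 1.01 and 1.28 (each ± 0.24; adjusted p 0.000945, 0.0156 and 0.00574). The Pkm call in CD4 DTx (adjusted p 0.0156) was lost without either CD4 PBS library.

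The enolases parted. Eno1 was at 31024 and 30258 in CD4 PBS, 64943, 67247 and 51006 in Treg PBS and 100916, 51547 and 54397 in CD4 DTx, with no overlap, yet it missed the threshold in both in limma (log2 0.98, adjusted p 0.0618, and 1.10, adjusted p 0.0556). DESeq2 called Eno1 higher in both (adjusted p 0.0142 and 0.00387), as did the replicate block (adjusted p 0.0487 and 0.0398), and edgeR called it in CD4 DTx (adjusted p 0.0427). The block also raised calls over all genes, from 2581 to 3210 in Treg PBS and from 1612 to 2029 in CD4 DTx. In CD8 DTx it was called (log2 1.40 ± 0.34, adjusted p 0.0226), a call lost without CD8 DTx 1, CD8 DTx 2 or either CD8 PBS library. Eno2, the neuronal isoform, was at 105.0, 103 and 97.7 in Treg PBS. It was at 0 and 3.96 in CD4 PBS, at 0 in both CD8 PBS and all 3 CD4 DTx libraries, and at 2.77, 0 and 0 in CD8 DTx. Eno2 was therefore found at a steady low level in Treg cells and at 6 recovered reads or fewer in each of the other libraries. With 3 reads as the floor in each DTx library, its Treg mean was at least 31.1-fold higher than in CD4 DTx and at least 31.5-fold higher than in CD8 DTx. Against CD4 PBS limma called it (adjusted p 0.00466), and edgeR on the recovered reads did not (adjusted p 0.107), nor did limma without CD4 PBS 2.

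Lactate dehydrogenase showed opposite changes in its isoforms. Ldha was at 34431 and 31243 in CD4 PBS, 34843 and 32359 in CD8 PBS, 83424, 100794 and 82457 in Treg PBS, 77091, 92524 and 72711 in CD4 DTx, and 77282, 81586 and 57690 in CD8 DTx. Each PBS Tconv library was below all others. Its log2 fold changes were 1.43, 1.29 and 1.09 (each ± 0.25; adjusted p 0.00154, 0.00427 and 0.0149). The CD8 call was lost without CD8 DTx 1 or either CD8 PBS library, and the CD4 DTx call without CD4 PBS 3. Ldhb, the isoform that favours the return of lactate to pyruvate, was at 1641 and 1435 in CD4 PBS, 563 and 417 in CD8 PBS and 1639, 1614 and 1007 in Treg PBS. After DTx it was at 258, 162 and 105 in CD4 cells and 158, 68.4 and 55.2 in CD8 cells. Each DTx library was below each PBS library of any kind. The log2 fold change was -3.22 ± 0.48 (adjusted p 0.001) in CD4 DTx and -2.51 ± 0.48 (adjusted p 0.00648) in CD8 DTx, a call lost without either CD8 PBS library, and it was -0.15 ± 0.48 (adjusted p 0.859, 95% interval -1.20 to 0.90) in Treg PBS.

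**Figure D3:**
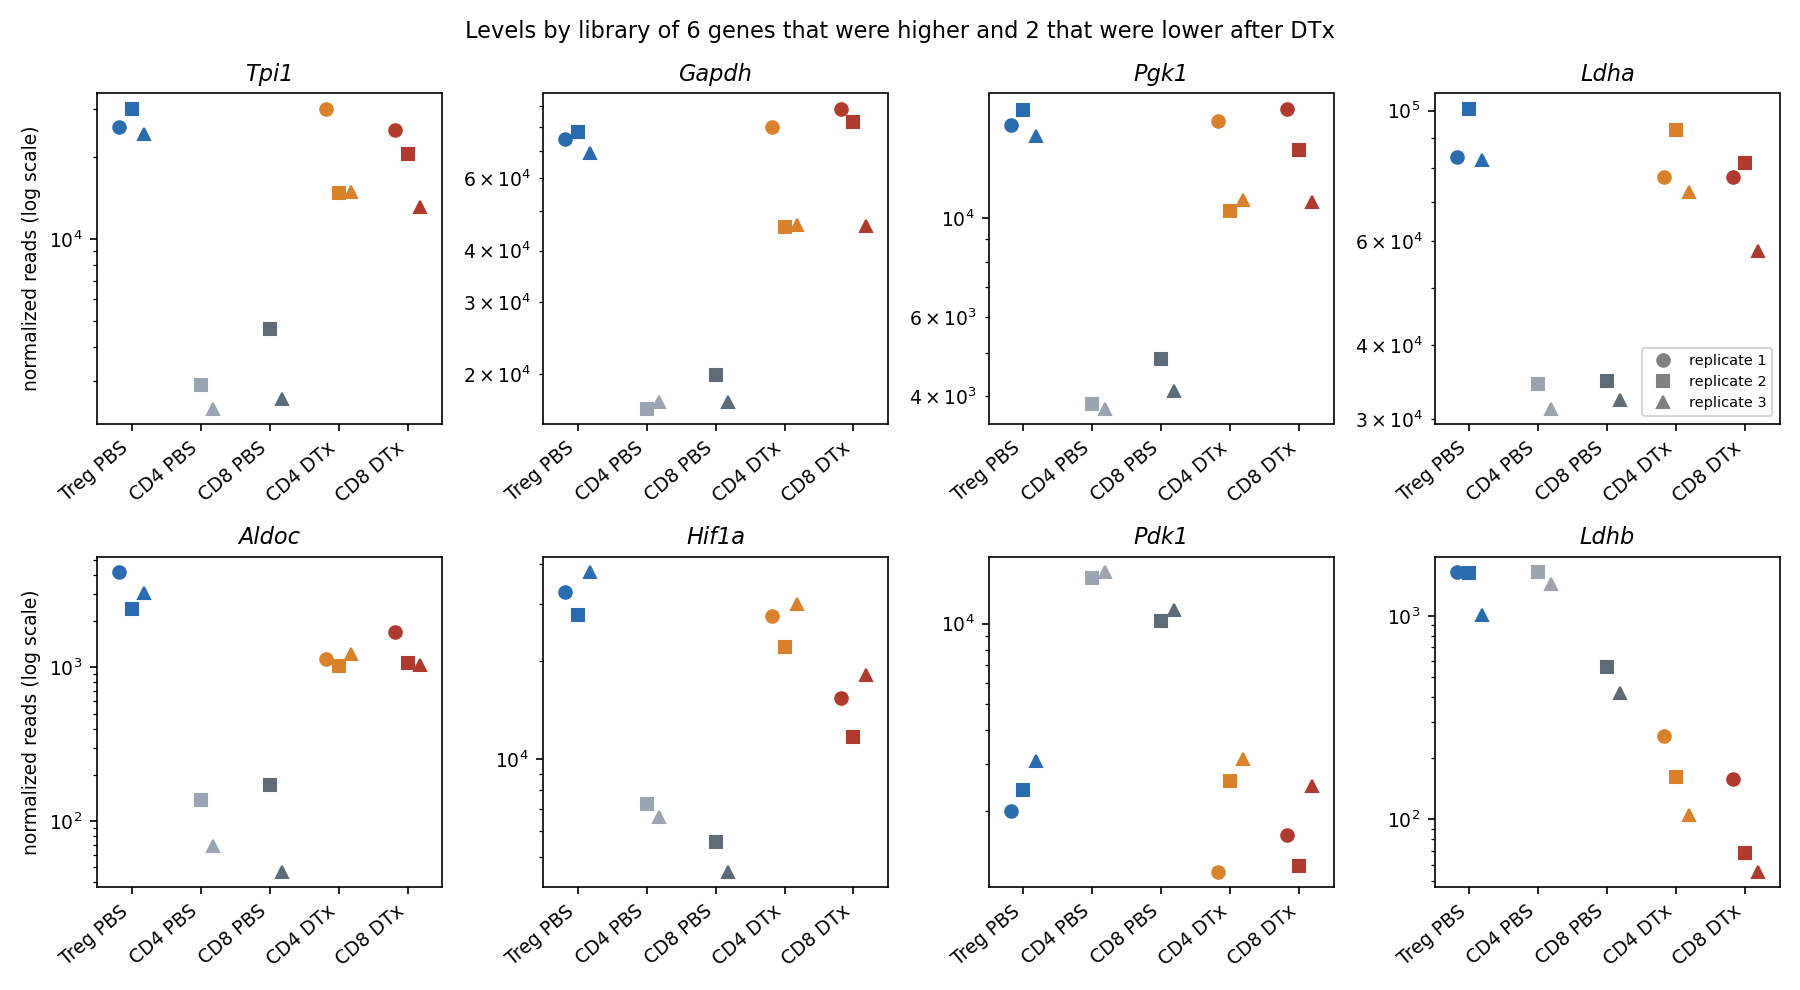
Normalized reads by library on log axes for Tpi1, Gapdh, Pgk1, Ldha, Aldoc and Hif1a, which were higher in both DTx groups, and for Pdk1 and Ldhb, which were lower. In the first 6 panels the 4 PBS Tconv libraries lie below all others, Pdk1 is highest in those 4, and Ldhb runs from 258 down to 55.2 in the DTx groups, below every PBS library.

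The list held 4 kinases that set the flux around the pathway. Pdk1, which inhibits pyruvate dehydrogenase, was at 14784 and 15597 in CD4 PBS and 10210 and 11245 in CD8 PBS. It was at 2004, 2400 and 3089 in Treg PBS, 1185, 2589 and 3136 in CD4 DTx and 1635, 1253 and 2474 in CD8 DTx. The 4 PBS Tconv libraries were each at least 3 times any other library. The log2 fold change was -2.63, -2.84 and -2.64 (each ± 0.38; adjusted p 0.000518, 0.000518 and 0.00159). Pdk1 is known as a HIF-1 target, and it was the one gene of the list that was lower in all 3 comparisons. Pdk3, another kinase of the same complex, was at 866 and 994 in CD4 PBS and 3374, 3395 and 2556 in Treg PBS, a log2 fold change of 1.73 ± 0.29 (adjusted p 0.00126). It was at 1095, 1859 and 1237 after DTx in CD4 cells, and at 2898, 3776 and 2031 in CD8 cells against 1725 and 1496 in CD8 PBS. These groups did not overlap but missed the threshold (log2 0.55 and 0.81, adjusted p 0.248 and 0.0947). Pfkfb3 and Pfkfb4, which make the phosphofructokinase activator fructose 2,6-bisphosphate, were called in none of the 3, with levels of 237 to 1032 and 0 to 282.

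Compared per kilobase of exon, so that isoforms of different length can be set side by side, the make-up of several families shifted. Ldhb was 6.37% ± 0.16 (SD, n = 2) of Ldha plus Ldhb in CD4 PBS, 2.07% ± 0.32 (SD, n = 2) in CD8 PBS and 2.26% ± 0.52 (SD, n = 3) in Treg PBS, and 0.316% ± 0.147 (SD, n = 3) in CD4 DTx and 0.186% ± 0.096 (SD, n = 3) in CD8 DTx. Pdk3 was 13% ± 0.67 of Pdk1 plus Pdk3 in CD4 PBS and 26.9% ± 3.3 in CD8 PBS, and 75.0% ± 7.1 in Treg PBS. The DTx groups had 60.8% ± 10.4 (CD4) and 78.7% ± 10.9 (CD8) in Pdk3. Pfkp was 59.6% ± 6.0 of the phosphofructokinases in CD4 PBS and 68.1% ± 0.84 in CD4 DTx, and 65.5% ± 1.4 in CD8 PBS and 78.1% ± 2.2 in CD8 DTx. Aldoc was 0.640% ± 0.261 of the aldolases in CD4 PBS and 6.91% ± 1.5 in Treg PBS.

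The log2 ratio within a library was tested by a two-sided exact permutation test. The ratio of Ldha to Ldhb differed by 4.51 between CD4 DTx and CD4 PBS, by 3.60 between CD8 DTx and CD8 PBS and by 1.58 between Treg PBS and CD4 PBS. The ratio of Pdk3 to Pdk1 differed by 3.39, 3.45 and 4.36 in the same order. These 6 differences were without overlap and had an exact permutation p of 0.2. With the smaller tail doubled, as here, this is the smallest p that 3 libraries against 2 allow, so this design cannot pass 0.05. The p was 0.218 after Benjamini-Hochberg adjustment over the 24 ratio comparisons computed (8 pairs of genes in 3 comparisons). Bnip3l to Bnip3 differed by -2.70 in Treg PBS, by -0.89 in CD4 DTx and by -1.43 in CD8 DTx, and Egln3 to Egln1 was higher by 2.11, 1.59 and 0.81, again without overlap. Pfkp to Pfkl differed by 0.38 in CD4 DTx and 0.76 in CD8 DTx without overlap, and by -0.39 in Treg PBS with overlap. Hk2 to Hk1 was higher by 5.25, 5.83 and 2.69 and Pfkfb4 to Pfkfb3 differed by -1.11, -4.15 and -1.85, sizes that rest on the pseudocount because Hk2 and Pfkfb4 reached 0 in a library. Eno2 to Eno1 was higher by 4.54 in Treg PBS, also without overlap.

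**Figure D4:**
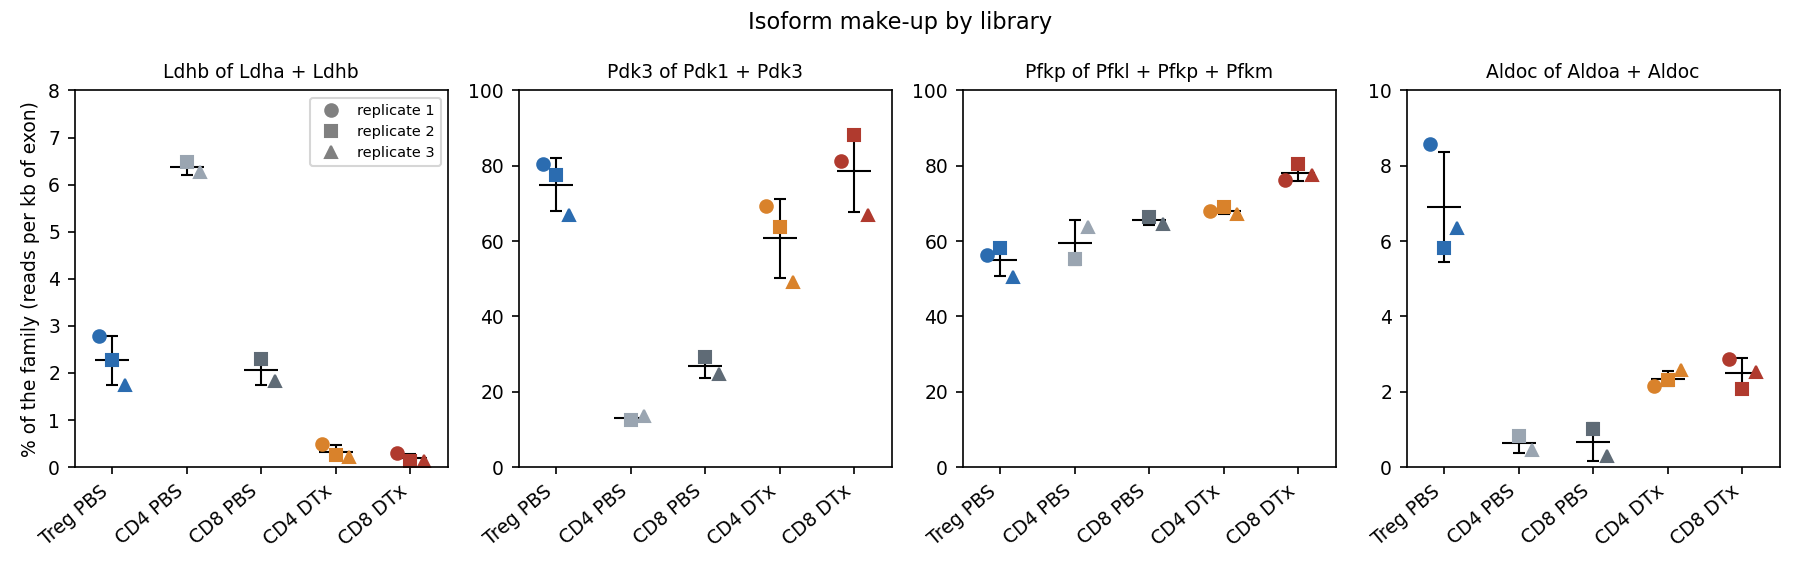
Percent that one isoform takes of its family, per kilobase of exon, by library and group, with one symbol per library and the group mean ± SD in black. Ldhb falls from 6.37% in CD4 PBS to 0.316% in CD4 DTx, Pdk3 is at or above 60.8% on average in Treg PBS and both DTx groups, Pfkp reaches 78.1% in CD8 DTx, and Aldoc reaches 6.91% in Treg PBS.

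Of the 4 oxygen-sensing genes, Hif1a was higher in all 3 comparisons. It was at 7235 and 6625 in CD4 PBS and 5544 and 4477 in CD8 PBS, at 32783, 27861 and 37700 in Treg PBS, at 27639, 22092 and 29955 in CD4 DTx and at 15390, 11645 and 18207 in CD8 DTx. CD8 DTx libraries lay between the PBS Tconv libraries and the others, without overlap. The log2 fold changes were 2.23, 1.93 and 1.57 (each ± 0.23; adjusted p 6.94e-05, 0.000285 and 0.00182). The transcript level says nothing of the protein, which is set mainly by degradation. Egln3, a prolyl hydroxylase that is itself a HIF target, was at 130 and 157 in CD4 PBS, 351, 756 and 1171 in Treg PBS and 400, 830 and 716 in CD4 DTx (log2 2.24 ± 0.51, adjusted p 0.00874, and 2.11 ± 0.51, adjusted p 0.0166). The Treg call was lost without CD4 PBS 2, and the CD4 DTx call without either CD4 PBS library or CD4 DTx 2. In CD8 DTx Egln3 was at 166, 261 and 265 against 101 and 66.6 (log2 1.45, adjusted p 0.0895). Vhl was at 1118 and 797 in CD4 PBS, 1034 and 861 in CD8 PBS, 1204, 1015 and 1085 in Treg PBS, 1165, 1446 and 1370 in CD4 DTx, and 1450, 1261 and 1486 in CD8 DTx. The DTx libraries were above the PBS libraries of their cell type, but Vhl missed the threshold (log2 0.22, 0.48 and 0.56, adjusted p 0.495, 0.176 and 0.118). Egln1 was called in none of the 3, with levels of 1699 to 3942.

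Of 12 HIF targets with other functions, the 3 comparisons called 5, 4 and 4 as higher, and none as lower. Bnip3, a mitophagy receptor of the outer mitochondrial membrane, was at 395 and 461 in CD4 PBS and 492 and 343 in CD8 PBS. It was at 2745, 4538 and 4838 in Treg PBS, 1059, 870 and 1077 in CD4 DTx and 2005, 1153 and 1742 in CD8 DTx. The Treg libraries were above all others, the DTx libraries above the PBS Tconv libraries. The log2 fold change was 3.20 ± 0.31 (adjusted p 4.11e-05) in Treg PBS, 1.22 ± 0.31 (adjusted p 0.0205) in CD4 DTx and 1.95 ± 0.31 (adjusted p 0.00239) in CD8 DTx. The CD4 DTx call was lost without either CD4 PBS library or CD4 DTx 3 and after scaling to equal totals, and the CD8 DTx call without CD8 PBS 3. Its relative Bnip3l was called in none of the 3.

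Ero1l, the oxidase that forms disulphide bonds in the endoplasmic reticulum, was at 2017 and 2199 in CD4 PBS and 2293 and 1903 in CD8 PBS, and at 4041, 7421 and 9030 in Treg PBS, 12883, 10571 and 9063 in CD4 DTx and 5392, 5630 and 5568 in CD8 DTx. The CD4 DTx libraries were the highest. Its log2 fold changes were 1.62, 2.35 and 1.40 (each ± 0.29; adjusted p 0.00188, 0.000285 and 0.00886), the last lost without CD8 PBS 3. Higd1a, a small protein of the inner mitochondrial membrane, was at 962 and 739 in CD4 PBS, 1285 and 969 in CD8 PBS, 3320, 3222 and 2052 in Treg PBS, 3553, 1822 and 2139 in CD4 DTx, and 3461, 2557 and 1977 in CD8 DTx. The PBS Tconv libraries were lowest, and the gene was called in all 3 comparisons (log2 1.73, 1.51 and 1.22, each ± 0.33). Its CD8 call (adjusted p 0.0361) held in only 10 of 18 alternative settings and was lost without CD8 DTx 1, CD8 DTx 2 or either CD8 PBS library, and its CD4 DTx call (adjusted p 0.0106) was lost without CD4 PBS 3.

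Other HIF targets were called in some comparisons. P4ha1, a collagen prolyl hydroxylase, was at 1337 and 1835 in CD4 PBS, 1366 and 1473 in CD8 PBS, 3638, 2940 and 3776 in Treg PBS, 2752, 1683 and 1578 in CD4 DTx, and 2243, 2101 and 1868 in CD8 DTx. It was higher in Treg PBS (log2 1.13 ± 0.25, adjusted p 0.00793), a call lost without CD4 PBS 2, and missed the threshold after DTx (log2 0.31 and 0.54, adjusted p 0.466 and 0.196). Mxi1, a Myc antagonist, was at 731 and 1235 in CD4 PBS, 746 and 704 in CD8 PBS, 2213, 2177 and 4125 in Treg PBS, 1927, 1302 and 1669 in CD4 DTx, and 2186, 1572 and 2360 in CD8 DTx. No PBS Tconv library of the same cell type reached the Treg or DTx libraries. Mxi1 was called in Treg PBS (log2 1.51 ± 0.33, adjusted p 0.00671), which was lost without CD4 PBS 2, and in CD8 DTx (log2 1.47 ± 0.33, adjusted p 0.0139), which was lost without either CD8 PBS library. Ankrd37 was called in CD4 DTx (log2 1.71 ± 0.45, adjusted p 0.0258), which was lost without CD4 DTx 1 or either CD4 PBS library.

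Several well-known HIF targets were not called by limma in any of the 3 comparisons as reported. Vegfa, the angiogenic factor, was at 0 to 119 in all libraries, and P4ha2 at 0 to 133. Ddit4, an inhibitor of mTORC1, was at 1270 and 232 in CD4 PBS and 849 and 253 in CD8 PBS, so replicates of a group differed more than the groups did. Kdm3a, a histone demethylase, was at 4245 and 4722 in CD4 PBS and 1469, 1781 and 3981 in Treg PBS, with a log2 difference of -1.04 (95% interval -1.99 to -0.08, adjusted p 0.117). Ndrg1 was at 306, 2546 and 1434 in CD4 DTx against 358 and 582 in CD4 PBS, which overlapped (log2 1.18, adjusted p 0.304). DESeq2 called Ndrg1 higher in Treg PBS (adjusted p 0.0419). With a replicate block limma called Ndrg1 higher in Treg PBS and CD4 DTx (adjusted p 0.0122 and 0.0463) and Kdm3a lower in Treg PBS (adjusted p 0.0454).

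Of the 3 glycogen genes limma called Pgm2 alone. It was at 1954 and 1745 in CD4 PBS, 1498 and 1321 in CD8 PBS, 3327, 3394 and 2890 in Treg PBS, 3283, 2502 and 2083 in CD4 DTx, and 2472, 2633 and 2038 in CD8 DTx. It was higher in Treg PBS (log2 0.79 ± 0.21, adjusted p 0.0209) and CD8 DTx (log2 0.75 ± 0.21, adjusted p 0.0427), and these calls held in 13 and 9 of 18 alternative settings and were each lost without either PBS Tconv library of the comparison and without replicate 1 or 2 of the other group. The symbols Pgm1 and Pgm2 have been exchanged between annotation releases, so which phosphoglucomutase each row counts is uncertain. Gbe1, the branching enzyme, was at 494, 453 and 439 in CD4 DTx and 598, 690 and 394 in CD8 DTx, below the 750 to 1004 of the PBS Tconv libraries, and missed the threshold in limma (log2 -0.81 in both, adjusted p 0.0691 and 0.0759). DESeq2 called Gbe1 lower in both (adjusted p 0.0214 and 0.0323) and Pgm1 higher in CD8 DTx (adjusted p 0.0159), and the replicate block gave the same 3 calls.

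Against Treg cells, CD4 Tconv cells after DTx differed in 6 of the 40 genes, all lower, where 7.91% of all genes were called (3.36% higher and 4.55% lower), and CD8 Tconv cells after DTx in 7, with 1 higher and 6 lower, where 8.6% were (3.88% higher and 4.71% lower). Past 4-fold 2 genes were called in each, where 4.01% and 4.93% of all genes were. Both comparisons share the Treg PBS libraries. Bnip3 was lower in CD4 DTx (log2 -1.97 ± 0.27, adjusted p 0.00118) and CD8 DTx (log2 -1.30 ± 0.27, adjusted p 0.0107, lost without Treg PBS 2 or Treg PBS 3), as was Ldhb (log2 -3.07 ± 0.43, adjusted p 0.00125, and -4.02 ± 0.43, adjusted p 0.000135), and Eno2 was called in both (its bounds are given above), though edgeR did not call it in CD8 DTx (adjusted p 0.0822). Pdk3, Gbe1 and P4ha1 were lower in CD4 DTx (log2 -1.18, -1.03 and -0.82, adjusted p 0.0152, 0.021 and 0.0449). Each of these 3 calls was lost without Treg PBS 1, Treg PBS 2 or CD4 DTx 3, which leaves a count of 3, and P4ha1 held in 9 of 19 alternative settings. In CD8 DTx Hif1a (log2 -1.13 ± 0.21, adjusted p 0.00502), Pfkl (log2 -0.58, adjusted p 0.0384) and Pfkm (log2 -1.39, adjusted p 0.0371) were lower and Pfkp was higher (log2 0.93 ± 0.16, adjusted p 0.00317), with 4 genes left without Treg PBS 3. The Pfkl call held in 9 of 19 alternative settings and the Pfkm call in 13. Gapdh, Tpi1, Pgk1 and Ldha missed the threshold in limma, with 95% intervals of the log2 difference from Treg PBS for CD4 DTx of -1.04 to 0.21 for Gapdh, -1.20 to 0.21 for Tpi1, -0.87 to 0.07 for Pgk1 and -0.62 to 0.34 for Ldha, and for CD8 DTx of -0.72 to 0.54, -1.20 to 0.22, -0.69 to 0.25 and -0.79 to 0.17. Differences of up to about that size remain possible. Among the enzymes DESeq2 also called Pfkp higher in CD4 DTx (adjusted p 0.00762) and Pkm lower in CD8 DTx (adjusted p 0.00617), beside Aldoc in both.

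CD8 and CD4 Tconv cells of PBS-treated mice differed in 0 of the 40 genes by limma, edgeR and DESeq2, where 1.08% of all genes were called by limma. By each tool 4 of the 40 had an unadjusted p under 0.05, as had 827 of all 12667 genes by limma. After DTx 0 of the 40 passed between CD8 and CD4 by limma and edgeR, where 1.64% of all genes were called by limma. An unadjusted p under 0.05 was found for 7 (limma) and 8 (edgeR) of the 40, and for 1443 and 1360 of all 12667 genes. DESeq2 called 5 of the 40 (Egln3, Ero1l, Hif1a, Pdk3, Pfkp) and 520 of all 12667. Here same-numbered libraries deviated together from their group means (r of 0.36, 0.21 and 0.59 across genes). With the replicate number as a block limma called 3 of the 40 and 414 of all 12667 genes. Hif1a was lower in CD8 DTx (log2 -0.83, adjusted p 0.0809 without the block and 0.042 with it), as was Egln3 (log2 -1.45, adjusted p 0.174 and 0.033), and Pdk3 was higher (log2 1.05, adjusted p 0.072 and 0.0265). Whether the change with DTx was unequal in the CD4 and the CD8 cells was tested as an interaction term. It passed for 0 of the 40 genes by limma, edgeR and DESeq2, where 0.0474% of all genes were called by limma. By each tool 2 of the 40 had an unadjusted p under 0.05, as had 513 of all 12667 genes by limma.

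Genes around the pathway, listed by function, were read beside these. Over all genes tested 20.4%, 12.7% and 10.9% were called in the 3 main comparisons, and each list below is to be read beside these shares. Of 8 glucose and lactate transport genes 7 were higher in Treg PBS, 7 in CD4 DTx and 6 in CD8 DTx, with none lower. The lactate exporter Slc16a3 was at 91.6 and 40.3 in CD4 PBS, 329 and 70.6 in CD8 PBS, 2172, 2145 and 2673 in Treg PBS, 816, 989 and 1144 in CD4 DTx, and 946, 1108 and 1477 in CD8 DTx. Its groups lay in the same order as those of Aldoc, without overlap, with log2 fold changes of 5.23 ± 0.53 (adjusted p 5.44e-05), 3.98 ± 0.53 (adjusted p 0.000518) and 2.91 ± 0.53 (adjusted p 0.0052). The glucose transporters Slc2a3 (log2 1.66, 1.93 and 1.87, each ± 0.24) and Slc2a8 (log2 1.83, 1.79 and 1.20, each ± 0.32) and the carrier Slc16a6 (log2 2.20, 2.10 and 1.17, each ± 0.29) were also higher in all 3.

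Of 11 genes of pyruvate entry into mitochondria and its use there limma called 0, 1 and 1 (0%, 9.09% and 9.09%). Each was below the share over all genes (20.4%, 12.7% and 10.9%). The gene called was Pdk2, a further pyruvate dehydrogenase kinase, lower after DTx (log2 -2.22 ± 0.35, adjusted p 0.00126, in CD4 and -1.30 ± 0.35, adjusted p 0.0326, in CD8). Of 8 pentose phosphate genes limma called 0 in each comparison, the nearest being Rpe (log2 0.70, 0.76 and 0.66, adjusted p 0.0581, 0.0562 and 0.099). Of 9 further isoforms of glycolytic enzymes 1, 2 and 2 were called, among them the ADP-dependent glucokinase Adpgk, which was lower in all 3 (log2 -1.56, -1.90 and -1.60, each ± 0.36). Of 2 other genes of fructose bisphosphate turnover Pfkfb2 was lower in Treg PBS (log2 -1.82 ± 0.52, adjusted p 0.0267). Of 7 further glycogen genes 3, 2 and 1 were higher, with glycogenin, Gyg, higher in all 3 (log2 1.27, 1.29 and 1.32, each ± 0.30) and the phosphorylase Pygl in Treg PBS and CD4 DTx (log2 4.78 and 4.39, each ± 0.89).

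Of 13 other genes of the HIF pathway 1 was called in each comparison (7.69%, below the share over all genes each time). It was Cul2, the scaffold of the Vhl ligase, in Treg PBS (log2 0.55 ± 0.17, adjusted p 0.0395) and Epas1, which encodes HIF-2α, in both DTx comparisons. Epas1 was at 95.7 and 95.1 in CD4 PBS, 26.7 and 8 in CD8 PBS, 48.3, 31.4 and 122 in Treg PBS, 484, 1661 and 1335 in CD4 DTx, and 141, 588 and 376 in CD8 DTx. Each DTx library was above every PBS library. The log2 fold changes were 3.41 ± 0.79 (adjusted p 0.0136) and 4.32 ± 0.79 (adjusted p 0.00523) after DTx and -0.73 in Treg PBS (adjusted p 0.54).

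Of 19 further HIF targets 8, 5 and 4 were higher and none lower. The clock repressor Bhlhe40 (log2 2.57, 3.78 and 3.30, each ± 0.35) and the nuclear receptor Rora (log2 2.83 in Treg PBS and 2.67 in CD8 DTx, each ± 0.38, and adjusted p 0.00184 in CD4 DTx) were higher in all 3. Stc2, a secreted glycoprotein, was called in all 3 as well, with 4.23, 32.5 and 25.9 normalized reads in Treg PBS, 77.6, 78.0 and 96.9 in CD8 DTx, and 112, 195 and 157 in CD4 DTx, against 0 in both CD4 PBS libraries and 8.50 and 0 in CD8 PBS. Of 8 genes of Myc and mTOR signalling 1 was lower in each comparison. Myc, which also drives glycolytic genes, was lower in CD4 DTx (log2 -2.03 ± 0.46, adjusted p 0.0125) and CD8 DTx (log2 -1.81 ± 0.46, adjusted p 0.0277), and it was at 6068 and 8323 in the PBS Tconv libraries numbered 3, against 1980 and 3308 in those numbered 2. The kinase subunit Pik3cd was lower in Treg PBS (log2 -2.35 ± 0.50, adjusted p 0.00583).

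Other measures moved with these groups. Of 10 proliferation genes 9, 7 and 9 were higher in the 3 comparisons, and their summed level was 9067 to 9306 in CD4 PBS, 10461 to 14583 in CD8 PBS, 28334 to 58097 in Treg PBS, 15863 to 22734 in CD4 DTx and 32558 to 58552 in CD8 DTx. Of 10 melanocyte markers 7 were in the table, and their summed level was 1365 to 1894 in Treg PBS, 713 to 1024 in CD4 PBS, 491 to 1288 in CD8 PBS, 366 to 818 in CD4 DTx and 359 to 573 in CD8 DTx, with Mitf at 0 in both CD8 PBS libraries. Treg PBS was thus above every other group, and both DTx groups lay below it. Of 12 myeloid markers 11 were in the table, summing to 1165 to 4013 in Treg PBS, 1296 to 1486 in CD4 PBS, 676 to 2191 in CD8 PBS, 88.8 to 2204 in CD4 DTx and 1909 to 3117 in CD8 DTx, with S100a8 and S100a9 at 0 in CD4 PBS and Fcgr1 at 0 in CD8 PBS and both DTx groups. Of 5 erythroid markers 3 were in the table, summing to 948 to 6570 in PBS libraries and 0 to 1175 in DTx libraries. In these 3 comparisons limma called none of the myeloid and erythroid markers, 1 melanocyte marker (Trpm1, higher in Treg PBS) and 2 immediate early genes (Jun and Junb, lower in CD8 DTx). Cd79b, a B cell gene, was called higher in Treg PBS, at 401, 686 and 403 against 77.9 and 37.0 in CD4 PBS (log2 3.14 ± 0.64, adjusted p 0.00497). Cd8a was called higher in CD4 DTx, at 103, 711 and 1302 against 31.4 and 26.4 (log2 3.94 ± 0.84, adjusted p 0.00874). Pecam1, an endothelial marker that leukocytes also express and the only one of 7 fibroblast and endothelial markers in the table, was called lower in all 3 (log2 -1.93, -1.62 and -1.65, each ± 0.24). The part of dividing cells, tumor RNA, other cell types and the handling that immediate early genes can reflect was not tested.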

How the data were processed

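T cells sorted from B16-F10 tumors were profiled by RNA sequencing of 13 low-input libraries, for which the labels name SmartSeq2 and the methods a SMARTer Ultra Low-input kit. As the methods and labels describe, the authors trimmed reads with Cutadapt, aligned them with hisat2 to NCBIM37 (mm9), kept unique alignments and normalized to library size. The counter, strand setting and gene filter are not given in the sources used here. The authors deposited 1 table of a normalized signal per gene, named FPM, with DESeq2 among the tools the submitters' processing notes name. Within each library 100% of values were whole multiples of 1 step, within 0.01 of a read, so reads per library could be recovered. Column sums ran from 21793500 in CD4 PBS 2 to 27493700 in CD8 DTx 2, so the deposited values were not scaled to equal totals. Median-of-ratios rescaling factors lay between 0.982 and 1.01, so the alternative with that scaling could change little. Exons of 12 of the 40 genes overlap another gene, and Gapdh, Eno1, Ldha and other enzymes have processed copies in the genome that share reads with them, so their levels are uncertain to that extent.

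The design had been written for FPM. Limma 3.58.1 in R 4.3.3 was fitted to log2(value + 1) over the 12667 genes with a value of at least 10 in at least 2 libraries, with 1 mean per group over all 13 libraries, a mean trend and Benjamini-Hochberg adjustment over all genes, and fold changes on this scale understate the change of low genes. Libraries were grouped by the labelled cell type and treatment. The study describes its replicates as biological and taken on separate days, but no source used here ties a replicate number to a day or a mouse, so p-values measure the spread between these libraries. Alternatives were pseudocounts of 0.1 and 10, filters, TMM, median-of-ratios and equal-total scaling, edgeR 4.0.16 and DESeq2 1.42.0 on recovered reads, a replicate block, the compared groups alone, and each library left out. Replicate pairs differed by more than sampling noise (chi-square per gene 44.6 or more). Numbers were taken to pair CD8 DTx with CD4 DTx only, where the correlation of same-numbered deviations was over 0.1 in each of 3 pairs. CD8 PBS and CD4 PBS share only the numbers 2 and 3. With 2 libraries per group both pairs give the same r by construction, here 0.19. The script was tested on simulated data. Values in every library were given for Hif1a, Vhl, Gapdh, Pkm and, per role, up to 5 called genes with the smallest adjusted p in the main comparisons, and of the other pathway lists up to 4 genes with the smallest adjusted p were named. Other values were chosen after they were seen. The members and lists were chosen with earlier results of these data known.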

Additional observations from a re-analysis of the deposited data

How the results depend on the processing

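Directions of called results held: of 6345 recomputed values for single genes none reversed after being called. Of the 6345, 6056 kept their side of the threshold, 73 gained and 216 lost significance. A loss could by definition fall only on the 78 of 320 reported results that were called. All 320 kept their side under median-of-ratios scaling, with no filter on low values and at a pseudocount of 0.1. Signs were not compared where a gene was uncalled both times. Of the calls in Treg PBS, CD4 DTx and CD8 DTx against PBS Tconv cells (24, 21 and 20), 18, 14 and 8 held under every alternative listed at the outset, the 4-fold rule aside. The limits are the pairs of PBS Tconv libraries and the low counts of Hk2, Eno2, P4ha2 and Vegfa. Requiring 4-fold gave 11, 7 and 4, and 2 and 2 for CD4 DTx and CD8 DTx against Treg PBS. Equal column totals shifted the median of all genes to -0.18 in CD4 DTx and -0.23 in CD8 DTx, gave 11 for CD8 DTx against Treg PBS and put the CD8 DTx enzyme median at 1.20, from 1.40, where edgeR gave 1.60. DESeq2 gave 12 for CD8 DTx against Treg PBS and 5 between CD8 DTx and CD4 DTx, where it called 1444 and 520 of all 12667 genes. The fit on the compared groups alone gave 1 between CD8 PBS and CD4 PBS. With the replicate block, 11 were called for CD8 DTx against Treg PBS, 1 between CD8 PBS and CD4 PBS (Ldhb) and 3 between CD8 DTx and CD4 DTx. For CD4 DTx against Treg PBS 9 were called, 1.5 times the reported 6. Over all 12667 genes the block fit called 1585, 192, 414 and 1739 in this order. The 3 comparisons with PBS Tconv cells moved by less, to 27, 25 and 25. Same-numbered libraries did not all deviate together in these 5 comparisons with calls (r of -0.31 to 0.30). Without the libraries numbered 3, an alternative chosen after seeing the data, the counts were 15, 7 and 0, with 0 and 1 against Treg PBS, from 8 libraries. Calls over all genes tested fell in each of these comparisons too. The causes of these shifts, other than the smaller number of libraries or the stricter rule, were not tested. Leaving out 1 library at a time, which can leave a lone PBS library assumed to vary like the others, gave counts of 8 to 22 for CD8 DTx against CD8 PBS, 3 to 6 for CD4 DTx and 4 to 6 for CD8 DTx against Treg PBS, and 0 to 2 between CD8 DTx and CD4 DTx, and a CD8 DTx enzyme median of 1.27 to 1.68. Ratios with sparse isoforms moved with the pseudocount and the libraries. Hk2 to Hk1 was 6.99 at a pseudocount of 0.1 and 3.13 at 10 in Treg PBS (3.76 to 6.74 over libraries left out), and 7.57 and 3.68 in CD4 DTx (4.34 to 7.32). Eno2 to Eno1 was 6.34 and 2.26 in Treg PBS (3.37 to 5.72), where Eno2 was at or near 0, -3.77 at 0.1 in CD4 DTx (-3.43 to -1.08) and 0.22 at 0.1 in CD8 DTx. Leaving libraries out gave 0.13 to 0.64 for Pfkp to Pfkl in CD4 DTx and 0.53 to 1.08 for Egln3 to Egln1 in CD8 DTx.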
